A study of Homo sapiens with 12 samples.

Results

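The nuclear genes for proteins of the mitochondrial ribosome were followed through 4 h of actinomycin D in Ewing sarcoma cells. They were taken as the rows of the count table whose symbol is MRPL or MRPS, a number and at most one of the letters A to C, with at least 10 counts in at least 3 of the 12 libraries. Of 77 matching rows 76 passed, and all 76 were among the 12775 genes tested, out of 26334 genes listed. By symbol 48 belong to the large subunit (MRPL) and 28 to the small subunit (MRPS). The row that failed was MRPS24, with 0 to 2 counts in each library. The member with the lowest mean CPM, MRPS28, had 65 to 118 counts in each library.

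The cells, shA673-1c, derive from the Ewing sarcoma line A673 and carry a hairpin RNA under doxycycline control that targets the fusion EWS::FLI1. Every library, that at 0 h included, came from cells given doxycycline at 1 µg per ml for 4 days to induce the hairpin. The cells then received 5 µM actinomycin D, which blocks transcription, for 0, 1, 2 or 4 h, with 3 biological replicates at each time and polyadenylated RNA sequenced. Untreated cells were not analysed here, and the knockdown itself was therefore not checked.

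Mitochondria translate the few proteins encoded in their own genome, all of them parts of the respiratory chain and the ATP synthase, on a dedicated ribosome. Its RNAs are mitochondrial, whereas its proteins are encoded in the nucleus, made in the cytosol and imported. The large subunit holds the peptidyl transferase centre and the exit tunnel, and the small subunit binds the mRNA and decodes it. Symbols do not always follow place: the proteins MRPS30 and MRPS18A sit in the large subunit, and MRPS36 is described as a component of the 2-oxoglutarate dehydrogenase complex.

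The pentamer ATTTA, the core of AU-rich elements that many decay factors bind, was searched in the 3′ untranslated region (3′ UTR) of 1 GENCODE v29 transcript per gene. Of the 9 members that were lower at 4 h, 4 held it (44.4%), against 58.8% of the 51 members not called, 52.6% of all members and 71.0% of all genes tested with a transcript. These are their sites, shown because MRPL44, MRPS30 and MRPS31 were among the members with the largest falls. Capitals mark ATTTA, written 5′ to 3′ on the transcript strand.
MRPL44, 3′ UTR base 551 of 680: aatgttcttgATTTAattgtataga
MRPL44, 3′ UTR base 616 of 680: aggtatcataATTTAtgtatcttat
MRPS30, 3′ UTR base 32 of 320: ctgtgggaatATTTAaattttactg
MRPS30, 3′ UTR base 169 of 320: tcactgaaagATTTAattttagtta
MRPS30, 3′ UTR base 194 of 320: ccttttgttgATTTAaaaataattg
MRPS31, 3′ UTR base 224 of 237: ttagtaatacATTTAagacaacaa
MRPL32, 3′ UTR base 261 of 281: aaaataaaaaATTTAaaattcatag
None of the 9 held the longer element TATTTAT. MRPL46, which fell by 1.03 on the log2 scale, had no ATTTA in a 3′ UTR of 137 bases.

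Promoter windows follow for a head-to-head pair whose levels parted, MRPL46 and MRPS11, and for MRPS30 and MRPL28, which moved in opposite directions. Each runs from 120 bases before to 30 bases within the transcript, with the RefSeq start on GRCh38.p14. Capitals mark the YY1 motif AAGATGGC in MRPL46 and MRPS30 and the ETS motif CCGGAAG, read on the other strand as CTTCCGG, in MRPL28. The capitals in these windows lie after the start, within the transcript, and AAGATGGC itself contains ATG. Whether that ATG is the start codon was not checked. Windows of the same span for MRPL44, MRPS31 and MRPS25 are not shown and do not repeat this split of motifs. MRPL44 and MRPS31, which fell, held the SP1 motif GGGGCGGGG and the ETS motif, and neither held YY1. MRPS25, which rose, held none of the motifs searched.
MRPL46, chr15:88467359-88467508, minus strand: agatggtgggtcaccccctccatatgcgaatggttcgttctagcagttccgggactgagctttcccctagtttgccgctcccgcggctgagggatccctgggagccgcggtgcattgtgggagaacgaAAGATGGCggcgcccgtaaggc
MRPS11, chr15:88467588-88467737, plus strand: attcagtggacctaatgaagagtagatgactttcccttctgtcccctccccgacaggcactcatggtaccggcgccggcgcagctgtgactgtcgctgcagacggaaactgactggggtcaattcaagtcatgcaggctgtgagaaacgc
MRPS30, chr5:44808827-44808976, plus strand: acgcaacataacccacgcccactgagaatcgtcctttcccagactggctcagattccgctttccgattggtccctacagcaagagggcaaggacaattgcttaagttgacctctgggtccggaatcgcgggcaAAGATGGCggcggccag
MRPL28, chr16:370509-370658, minus strand: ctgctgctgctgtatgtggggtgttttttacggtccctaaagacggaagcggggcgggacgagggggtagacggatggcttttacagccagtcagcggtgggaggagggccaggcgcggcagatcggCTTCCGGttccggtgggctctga

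Total counts lay between 9381855 and 10929000 per library. Levels are CPM computed on TMM-scaled totals, and changes are log2 differences with their standard errors from edgeR's quasi-likelihood test, adjusted by Benjamini-Hochberg over all 12775 genes at a threshold of 0.05. All levels are relative to the other mRNAs of a library, so an mRNA lost more slowly than most appears higher, and in bulk RNA fewer cells with a transcript and less of it per cell cannot be told apart. Of 10 markers of Ewing sarcoma, several of them described as targets of the fusion, 8 passed the expression filter. CD99 was listed at 0 in every library, and since it lies in a pseudoautosomal region, where reads match both the X and the Y chromosome, no absence of its mRNA is read from this. Of 17 markers of other cell types 4 passed, with CD3E and MYOD1 at 0 and HBB the highest at a mean of 17.6 CPM of raw totals. The others that passed were DES, also a muscle marker, at 5.2 CPM, PECAM1 at 2.73 CPM and VWF at 0.993 CPM. Of the Ewing sarcoma markers that passed, only CAV1 (1804 CPM) and ETV6 (21.2 CPM) had a higher mean than HBB, and NKX2-2 was lowest at 1.18 CPM. The marker counts and levels alone therefore do not identify the cells.

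Before actinomycin D the members ranged from 9.31 ± 0.203 CPM for MRPS28 to 163 ± 20.5 CPM for MRPS6 (SD, n = 3). MRPS6, a homolog of the bacterial small subunit protein S6, had 145, 159 and 185 CPM. MRPL3, which reaches towards the peptidyl transferase centre, led the large subunit at 133, 142 and 138 CPM, and MRPL48 was its lowest member at 12.1 ± 0.958 CPM (SD, n = 3). Per kilobase of 1 GENCODE transcript per gene, MRPS6 was again first at 164 ± 20.7 CPM per kb (SD, n = 3), above MRPL33 at 81.5 ± 5.20, MRPL15 at 81.5 ± 3.01 and MRPL3 at 80.8 ± 2.85 CPM per kb. The last 3 did not differ beyond their spread. The median level was 26.0 CPM per kb over the large subunit and 27.1 CPM per kb over the small subunit. The lowest value per kb, 4.95 for MRPL42, rests on an annotated transcript of 15582 bases.

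After 4 h, 51 of the 76 mitochondrial ribosomal protein mRNAs did not pass the unpaired test, 4 falls stood out among the members, and the rises were small. Compared with 0 h, 16 of 76 were higher and 9 were lower, shares of 21.1% and 11.8%. Over all genes tested, 23.3% were higher and 24.6% were lower. The 16 that rose changed by 0.21 to 0.44 on the log2 scale, and the 9 that fell by -1.20 to -0.27. The median of the 76 was 0.07, with quartiles of -0.13 and 0.23. For all genes tested the median was 0.05, with wider quartiles of -0.40 and 0.31. All 9 falls, and 14 of the 16 rises, had no overlap between the 4 h and 0 h libraries. The same held for members not called: of those 51, 11 lay wholly above and 7 wholly below. The share of all genes without overlap was not computed. The members took 0.332% ± 0.00478 of the read counts at 4 h, against 0.355% ± 0.00930 at 0 h (SD, n = 3). With the replicate number as a block, 30 members were higher and 15 lower, shares of 39.5% and 19.7%, against 34.8% and 30.8% of all genes in that fit. Leaving out all libraries of replicate 1 gave 8 higher members (10.5%, against 15.3% of all genes), and leaving out those of replicate 2 gave 2 (2.63%, against 11.2%). The rises also depended on the scaling. All 9 falls held under each scaling tried. Of the 16 rises 2, MRPL28 and MRPS25, held with library totals, and none when libraries were scaled to cytosolic ribosomal protein mRNAs. Each scaling other than TMM moved the median of all genes down at 4 h, by -0.02 to -0.37. Such a shift weakens rises and cannot undo falls, so this contrast does not show the falls to be firmer. No scaling that moves all genes up was tried.

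**Figure D1:**
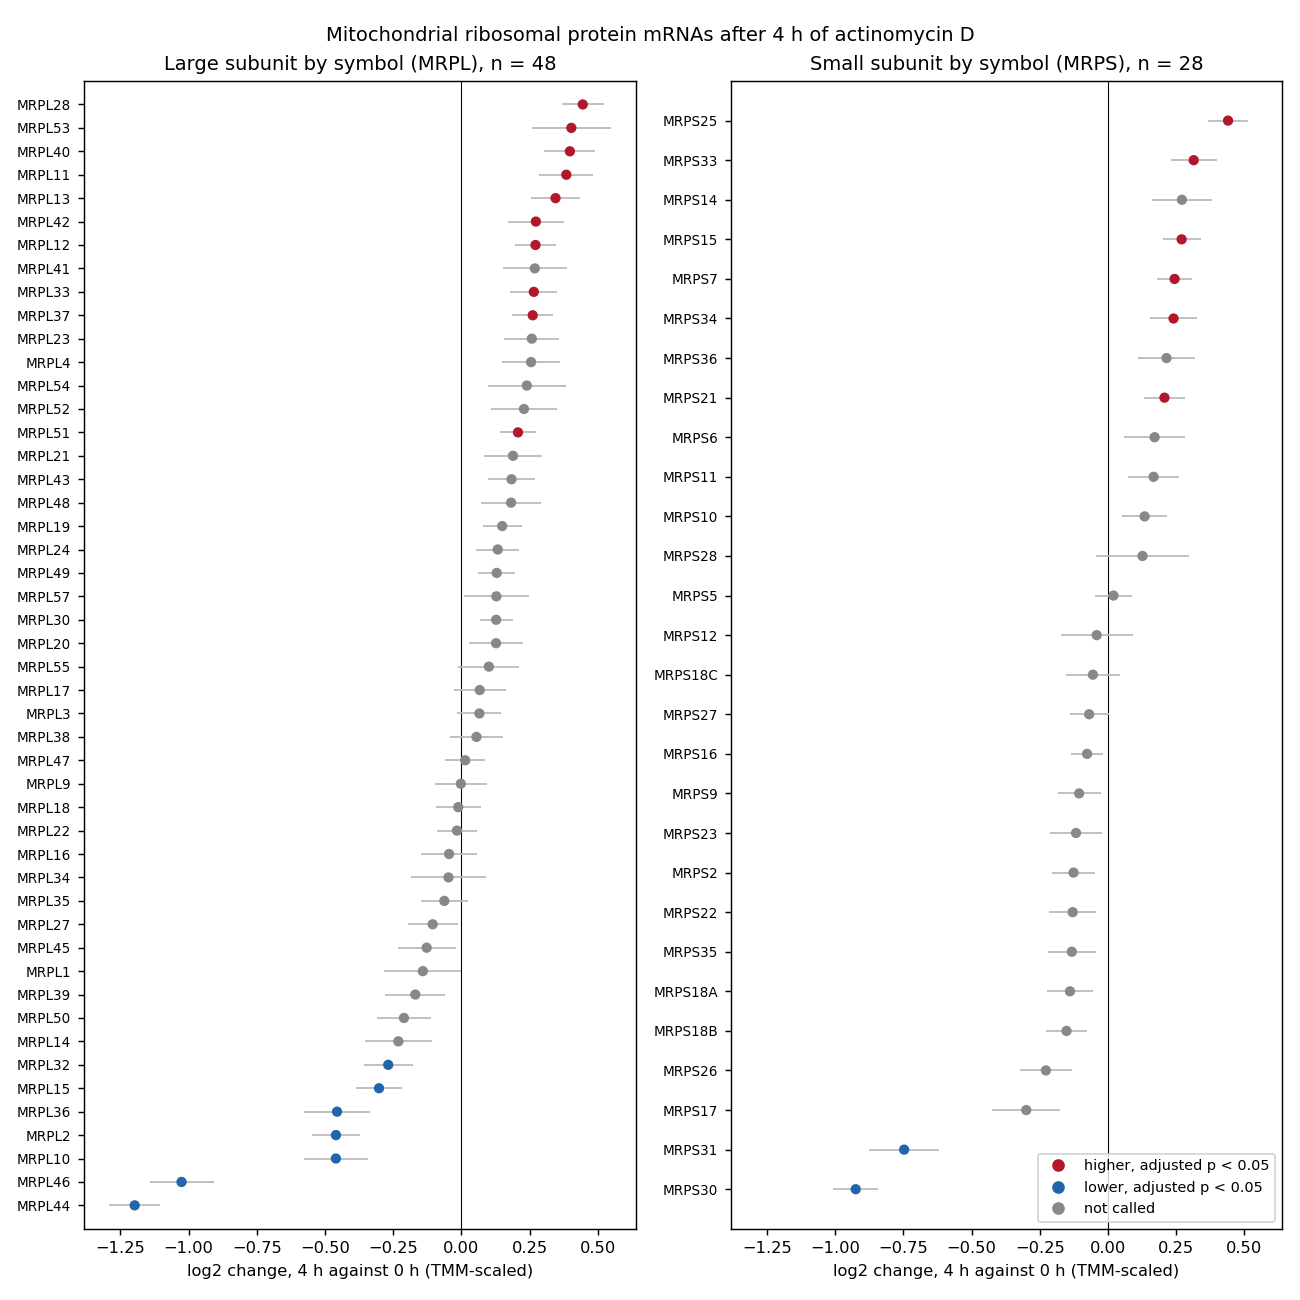
Log2 change at 4 h against 0 h for each of the 76 members (points; bars are standard errors of the edgeR fit), with large subunit symbols on the left and small subunit symbols on the right. MRPL44, MRPL46, MRPS30 and MRPS31 stand to the left of the rest, at -1.20 to -0.75, whereas the 16 rises reach no further than 0.44.

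MRPL44 fell furthest among the 76. Its product has a ribonuclease III-like fold and is needed to assemble the large subunit. It had 26.1, 27.1 and 26.6 CPM at 0 h, 22.9, 23.3 and 23.6 at 1 h, 19.4, 20.0 and 20.3 at 2 h, and 10.1, 11.9 and 12.7 at 4 h. The 3 libraries of each time lay below all those of the time before. At 4 h it was 2.29-fold lower than at 0 h (log2 change -1.20 ± 0.09, adjusted p = 4.48e-07).

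MRPL46, a protein of the central protuberance of the large subunit, had 15.1, 14.8 and 18.6 CPM at 0 h, 15.2, 14.8 and 13.99 at 1 h, 12.3, 12.8 and 11.7 at 2 h, and 7.48, 8.26 and 8.06 at 4 h. The libraries of 0 and 1 h overlapped, and those of 2 and 4 h lay below them. It was 2.04-fold lower at 4 h (-1.03 ± 0.12 on the log2 scale, adjusted p = 1.44e-05).

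MRPS30, whose ATTTA sites are shown above, had 31.3, 31.9 and 31.6 CPM at 0 h, 28.1, 28.9 and 29.03 at 1 h, 26.3, 28.9 and 25.9 at 2 h, and 17.9, 16.2 and 15.8 at 4 h. Most of the change lay after 2 h. It was 1.90-fold lower at 4 h (-0.92 ± 0.08 on the log2 scale, adjusted p = 1.33e-06). MRPS31, a small subunit protein also known as the islet autoantigen Imogen 38, had 7.82, 9.73 and 9.33 CPM at 4 h, against 15.5, 13.6 and 16.1 CPM at 0 h. It was 1.68-fold lower (-0.75 ± 0.13 on the log2 scale, adjusted p = 0.000402). MRPS31 has 4 pseudogenes named for it in GENCODE v29. One of them, MRPS31P5, was a row of the table with 10 to 23 counts per library, so reads may have been shared between them.

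The other falls were smaller. MRPL2, the homolog of the bacterial protein L2 beside the peptidyl transferase centre, had 20.6, 18.6 and 19.8 CPM at 4 h, against 27.5, 25.6 and 28.1 CPM at 0 h (log2 change -0.46 ± 0.09, adjusted p = 0.000999). MRPL10, at the base of the stalk that recruits translation factors, had 11.8, 10.9 and 10.4 CPM at 4 h, against 14.3, 14.7 and 16.5 CPM at 0 h (-0.46 ± 0.12, adjusted p = 0.00587). For both genes the libraries of the 2 times stood apart. MRPL36, MRPL15 and MRPL32, homologs of the bacterial proteins L36, L15 and L32, fell by 0.46, 0.30 and 0.27 on the log2 scale, with adjusted p of 0.00744, 0.0108 and 0.0261. The processing of MRPL32 by the m-AAA protease of mitochondria is known from yeast and mouse. Its call was lost when replicate 2 of 0 h, replicate 1 of 4 h or replicate 3 of 4 h was left out, with adjusted p of 0.0905, 0.0935 and 0.0719. The other 8 falls passed in each of the 6 fits that left out 1 library of either time.

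MRPL28, a large subunit protein also known as melanoma antigen p15, rose most. It had 66.0, 67.1 and 75.5 CPM at 0 h, 64.9, 73.0 and 73.7 at 1 h, 67.9, 68.8 and 75.9 at 2 h, and 93.7, 92.8 and 97.6 at 4 h. The first 3 times overlapped and the 4 h libraries lay above them all. It was 1.36-fold higher at 4 h than at 0 h (log2 change 0.44 ± 0.08, adjusted p = 0.000393). With libraries scaled to cytosolic ribosomal protein mRNAs its adjusted p was 0.472.

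MRPS25, a small subunit protein, had 36.6, 38.0 and 35.8 CPM at 0 h, 46.8, 45.6 and 52.3 at 1 h, 44.2, 41.0 and 41.6 at 2 h, and 47.5, 51.2 and 51.0 at 4 h. All later libraries lay above those of 0 h, and those of 2 h lay below those of 1 and 4 h. At 4 h it was 1.36-fold higher (0.44 ± 0.07 on the log2 scale, adjusted p = 0.000378), with an adjusted p of 0.601 when scaled to cytosolic ribosomal protein mRNAs.

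MRPL40, MRPL11 and MRPL53 of the large subunit were also among the largest rises. MRPL40, a protein of the central protuberance, had 29.2, 33.9 and 32.02 CPM at 4 h, against 24.3, 21.9 and 26.1 CPM at 0 h (0.40 ± 0.09 on the log2 scale, adjusted p = 0.00365). MRPL11, at the stalk base, had 42.8, 39.9 and 47.8 CPM at 4 h, against 31.6, 32.5 and 35.9 CPM at 0 h (0.38 ± 0.10, adjusted p = 0.00610). MRPL53 had 17.1, 15.2 and 19.2 CPM at 4 h, against 11.8, 12.6 and 14.5 CPM at 0 h (0.40 ± 0.14, adjusted p = 0.0356), and in each gene the 2 times did not overlap. The call of MRPL53 was lost without 0 h replicate 1 or 2 or 4 h replicate 1 or 3, at adjusted p of 0.108, 0.0904, 0.0720 and 0.131. MRPL12, the stalk protein that also binds the mitochondrial RNA polymerase, rose by 0.27 ± 0.07 (adjusted p = 0.00908), and with scaling to cytosolic ribosomal protein mRNAs its change was -0.10. Of the 16 rises, 8 passed in each of the 6 fits that left out 1 library of either time.

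**Figure D2:**
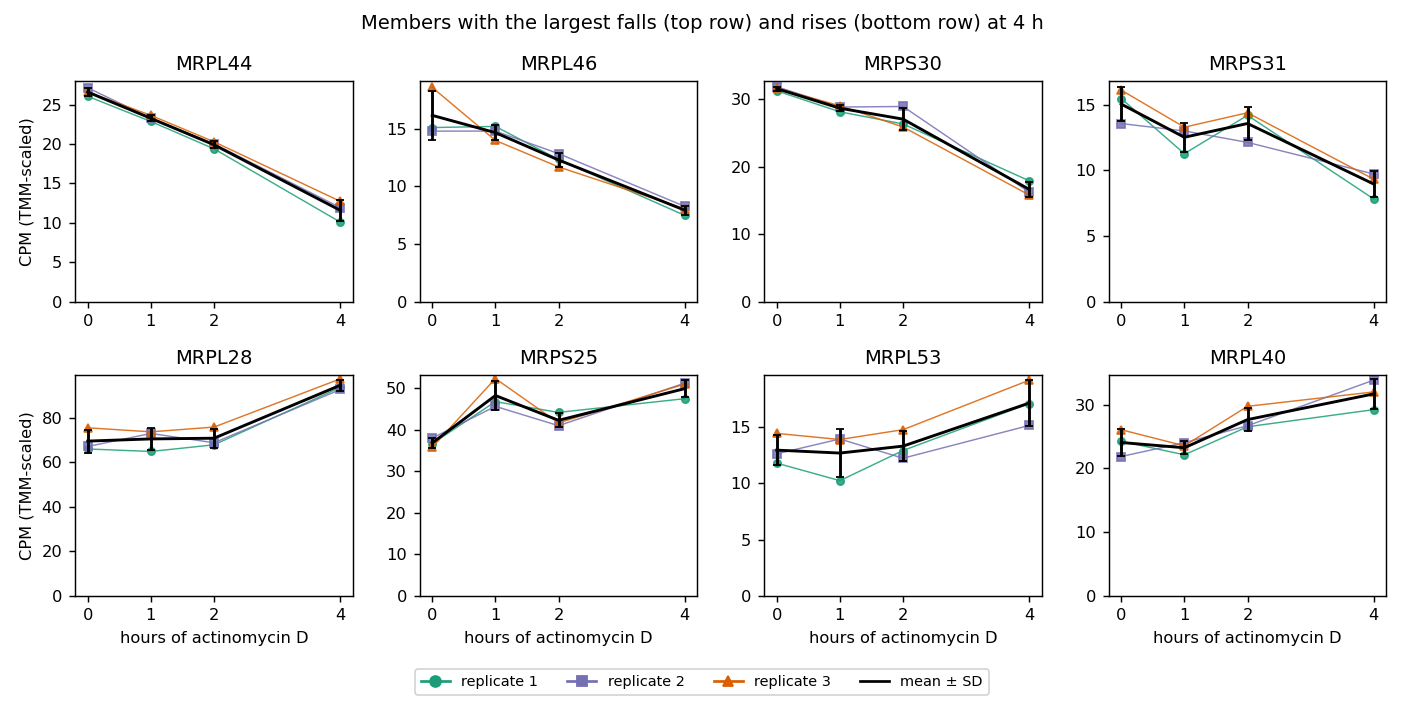
Level in CPM against hours of actinomycin D for the 4 members with the largest falls (top) and the 4 with the largest rises (bottom), with coloured lines for replicates and black for mean ± SD (n = 3). MRPL44 declines in every interval to 11.6 CPM, MRPL28 is level until 2 h and reaches 94.7 CPM at 4 h, and MRPS25 is already at 48.2 CPM at 1 h.

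Among small subunit members MRPS33 and MRPS15 also rose. MRPS33 had 27.2, 30.5 and 31.4 CPM at 4 h, against 22.6, 25.4 and 23.8 CPM at 0 h (0.31 ± 0.08 on the log2 scale, adjusted p = 0.00830). MRPS15, the homolog of the bacterial protein S15, had 75.9, 82.0 and 74.0 CPM at 4 h, against 65.3, 61.7 and 65.3 CPM at 0 h (0.27 ± 0.07, adjusted p = 0.00656). Scaling to cytosolic ribosomal protein mRNAs turned these changes to -0.06 and -0.10. MRPS17, MRPS26 and MRPS14 had log2 changes of -0.30, -0.23 and 0.27 with adjusted p of 0.0656, 0.0639 and 0.0616, and passed with the replicate block at 0.0118, 0.0238 and 0.0257. MRPS17 also passed without 4 h replicate 2, at 0.0469. The most abundant members did not pass: MRPS6 changed by 0.17 (adjusted p = 0.231, with the block 0.000875) and MRPL3 by 0.07 (adjusted p = 0.531). MRPS36 changed by 0.21 (adjusted p = 0.108, with the block 0.0385).

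The paralogs MRPS18A, MRPS18B and MRPS18C all descend from the bacterial protein S18. MRPS18A had 37.2, 33.8 and 32.3 CPM at 4 h, against 39.7, 36.2 and 37.9 CPM at 0 h, with overlap (-0.14 ± 0.08 on the log2 scale, adjusted p = 0.185). MRPS18B had 51.5, 45.8 and 50.5 CPM at 4 h, against 55.9, 53.0 and 55.2 CPM at 0 h, without overlap (-0.15 ± 0.07, adjusted p = 0.111, with the block 0.0419). MRPS18C had 11.9, 12.6 and 11.01 CPM at 0 h, 12.2, 12.4 and 12.8 at 1 h, 14.01, 15.5 and 15.7 at 2 h, and 11.3, 11.5 and 11.3 at 4 h, so that its 2 h libraries lay above all others. It was 1.27-fold higher at 2 h than at 0 h (0.35 ± 0.10, adjusted p = 0.0291) and 1.32-fold lower at 4 h than at 2 h (-0.40 ± 0.10, adjusted p = 0.01001). The 2 h call was lost without 0 h replicate 1 or 3 or 2 h replicate 2 or 3, at adjusted p of 0.0706 to 0.115.

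Few members passed at 1 or 2 h. At 1 h 1 member was higher, MRPS25 (0.39 ± 0.07 on the log2 scale, adjusted p = 0.0221), and 0 were lower, against 0.172% and 1.16% of all genes. Without any 1 of the 6 libraries of 0 and 1 h the adjusted p of MRPS25 was 0.0546 to 0.119. In the lower direction edgeR's unadjusted p was under 0.05 for 1 member, DESeq2 called 0, and the replicate block called 1, MRPL36 (adjusted p = 0.0438), and 6.28% of all genes. At 2 h 1 member was higher, MRPS18C, and 3 were lower, against 3.39% and 11.7% of all genes. With the block 7 were higher and 6 lower, shares of 9.21% and 7.89%, against 15.9% and 19.5% of all genes. The 3 were MRPL44 (-0.42 ± 0.09, adjusted p = 0.00616), MRPL46 (-0.40 ± 0.11, adjusted p = 0.0303) and MRPL2 (-0.29 ± 0.09, adjusted p = 0.0417). The MRPL46 call was lost without 0 h replicate 3 or any 2 h library (adjusted p 0.0641 to 0.124), and that of MRPL2 without any 1 library of either time (0.0562 to 0.175). MRPS30 at 2 h changed by -0.22 ± 0.08 (adjusted p = 0.0775, with the block 0.0204).

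Between 2 and 4 h 12 members were higher at 4 h and 5 lower, shares of 15.8% and 6.58%, against 10.2% and 14.2% of all genes. With the block 17 were higher and 12 lower, shares of 22.4% and 15.8%, against 22.1% and 22.3% of all genes. MRPL44 fell by a further 0.78 ± 0.10, MRPS30 by 0.70 ± 0.08, MRPL46 by 0.63 ± 0.12 and MRPS31 by 0.60 ± 0.13 on the log2 scale, with adjusted p of 0.000103, 7.37e-05, 0.00228 and 0.00497, and MRPS18C was the fifth. MRPL41, also described as a partner of BCL2, had 22.2, 23.1 and 23.4 CPM at 4 h, against 16.3, 14.8 and 17.3 CPM at 2 h (0.51 ± 0.12, adjusted p = 0.00766). It did not pass against 0 h (0.27 ± 0.12, adjusted p = 0.0748, with the block 0.0121, and 0.0160 without 0 h replicate 3). MRPL28 rose by 0.42 ± 0.08 in this interval (adjusted p = 0.00171). The number of higher members was between 4 and 7 without any 1 library of 2 or 4 h, where 6.25% to 8.32% of all genes were higher. It was 2 with library totals, against 4.84% of all genes, and 0 with scaling to cytosolic ribosomal protein mRNAs, against 0.916%. A slope over all 12 libraries called 18 members higher and 10 lower, against 25.3% and 25.5% of all genes. MRPL44 had a slope of -0.30 ± 0.03 per hour on the log2 scale (adjusted p = 2.45e-07). The number with a rising slope was 10 without 4 h replicate 2, against 20.5% of all genes, and the number with a falling slope was 6 without 4 h replicate 3, against 23.9%.

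Large and small subunit genes had overlapping ranges of change. At 4 h 10 of 48 large subunit genes were higher and 7 lower, shares of 20.8% and 14.6%. Of 28 small subunit genes 6 were higher and 2 lower, shares of 21.4% and 7.14%. Over all genes tested the shares were 23.3% and 24.6%. The median change was 0.11 for the large subunit and -0.05 for the small subunit on TMM scaling, -0.04 and -0.20 with library totals, and -0.26 and -0.42 with scaling to cytosolic ribosomal protein mRNAs. The large subunit median lay above the small subunit median in each of the 3 replicates, at 0.09, 0.10 and 0.01 for the large and 0.01, -0.02 and -0.07 for the small subunit. Without 0 h replicate 1 the large subunit median was 0.04, and without 0 h replicate 2 the small subunit median was 0.00349. The summed counts of the large subunit were 1.54 ± 0.0405 times those of the small subunit at 4 h and 1.498 ± 0.00810 times at 0 h (SD, n = 3), a difference within the spread at 4 h. Placing MRPS30 and MRPS18A with the large subunit and leaving out MRPS36 gave medians of 0.08 over 50 and -0.04 over 25 genes. These medians carry no test.

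**Figure D3:**
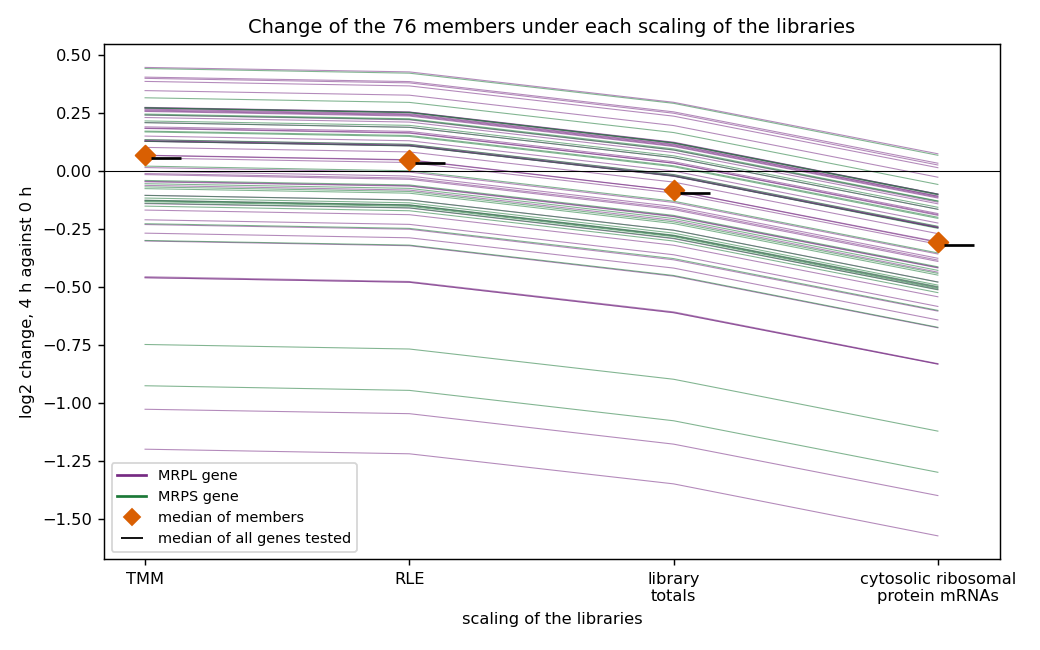
Log2 change at 4 h against 0 h of each member (1 line per gene) under 4 scalings of the libraries, with the median of the members (diamond) and of all genes tested (dash). Lines run in parallel, since a scaling moves all genes together, and the median of the members moves to -0.08 with library totals and -0.31 with cytosolic ribosomal protein mRNAs, beside that of all genes.

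A change of scaling moved the median of all genes at 4 h by -0.15 with library totals, by -0.02 with DESeq2-type size factors (RLE) and by -0.37 with scaling to cytosolic ribosomal protein mRNAs. Of the 76 members, 34 had a change below 0 with TMM, 48 with library totals and 71 with scaling to cytosolic ribosomal protein mRNAs. In that last scaling 42 members were lower at 4 h and 0 were higher, shares of 55.3% and 0%, against 45.8% and 1.2% of all genes.

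MRPL46 and MRPS11 were the one pair of members transcribed head to head with starts under 1 kb apart. Their RefSeq starts on chromosome 15 lie 320 bases apart, in the windows shown above. MRPS11, the homolog of the bacterial small subunit protein S11, had 35.9, 36.1 and 39.4 CPM at 4 h, against 33.4, 29.5 and 36.3 CPM at 0 h, with overlap (0.17 ± 0.09 on the log2 scale, adjusted p = 0.160, with the block 0.0461). MRPL46 fell by 1.03 on the same scale. With scaling to cytosolic ribosomal protein mRNAs MRPS11 changed by -0.20. The pair was chosen after its values were seen, and its difference was not tested.

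**Figure D4:**
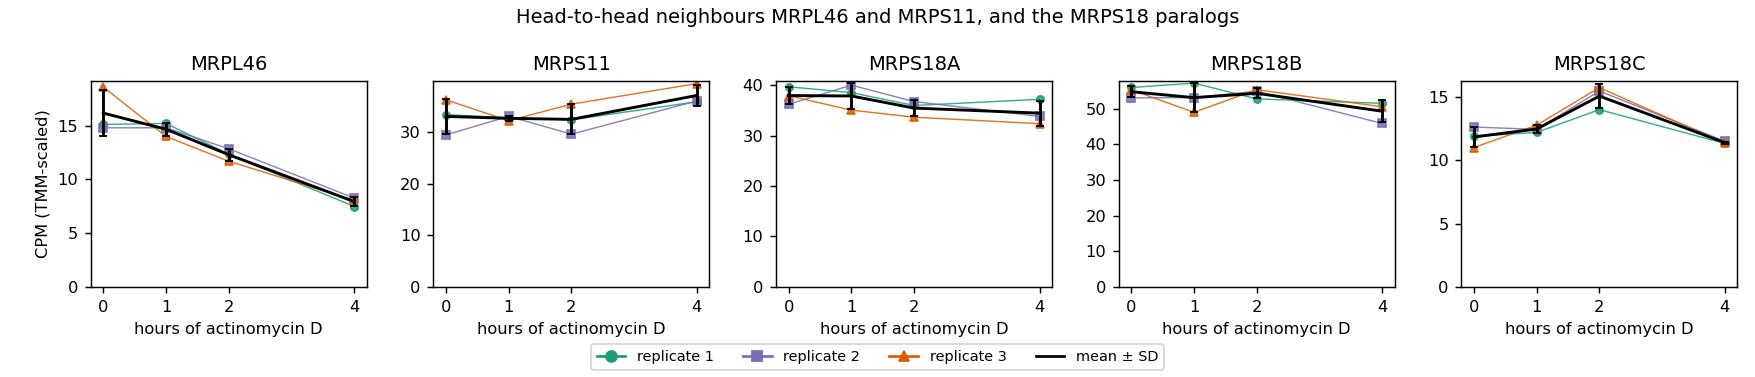
Level in CPM against hours of actinomycin D for the neighbours MRPL46 and MRPS11 and the paralogs MRPS18A, MRPS18B and MRPS18C (coloured lines for replicates, black for mean ± SD, n = 3). MRPL46 reaches 7.93 CPM at 4 h while the means of MRPS11 lie between 32.5 and 37.2 CPM, and MRPS18C peaks at 15.1 CPM at 2 h.

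Transcript features were set beside the change at 4 h as a description. The coding length had a median of 888 bases over the 9 members that fell, 555 over the 16 that rose, 570 over the 51 not called and 1440 over the 11672 tested genes with a transcript. The 3′ UTR had a median of 245, 358, 462 and 1165.5 bases in the same groups. ATTTA was found in the 3′ UTR of 4 of 9 members that fell (44.4%), 6 of 16 that rose (37.5%), 30 of 51 not called (58.8%) and 71.0% of all genes. TATTTAT was found in 0, 3 and 7 members of these groups and in 34.1% of all genes. Across the 76 members Spearman's rho between coding length and log2 change was -0.36, and that of 3′ UTR length was 0.01. Across the 11672 genes they were -0.12 and -0.25. The genes share the same 12 libraries and are not independent.

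RefSeq held a promoter of 300 bases for 67 of the 76 members. On both strands, the ETS motif CCGGAAG was present in 41.8% of these and in 10.3% of all 35116 promoters, and the YY1 motif AAGATGGC in 28.4% and 2.89%. The 2 motifs can overlap, since one ends and the other begins in AAG. The NRF1 core GCGCATGC was present in 8.96% and 3.05%, the SP1 motif GGGGCGGGG in 23.9% and 15.7%, and the E-box CACGTG in 8.96% and 7.26%. The 35116 promoters were not limited to the genes tested or to 1 promoter per gene, whereas the members are expressed genes with 1 each. Shares over the genes tested were not computed, so whether these excesses are particular to the members cannot be told. The YY1 motif was in 4 of the 6 members that fell and had a promoter, MRPL46 and MRPS30 among them, and in 3 of the 15 that rose. The ETS motif was in 1 of those 6 and 8 of those 15. With such numbers these counts are a description, and no match is a site.

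Other genes of mitochondrial gene expression were read from the same fit, in which 23.3% of all genes were higher and 24.6% lower at 4 h. Of 6 further mitochondrial ribosome genes with other symbols 3 were higher and 1 lower at 4 h (50% and 16.7%). They include the GTP-binding small subunit protein DAP3 (0.35 ± 0.06 on the log2 scale, adjusted p = 0.000474), AURKAIP1 (0.36 ± 0.09, adjusted p = 0.00426) and GADD45GIP1 (0.29 ± 0.09, adjusted p = 0.0174), and with scaling to cytosolic ribosomal protein mRNAs their changes were -0.02, -0.01 and -0.08. The GADD45GIP1 call was lost without 0 h replicate 1 or 2 or 4 h replicate 3, at adjusted p of 0.0556, 0.0589 and 0.0756. Of 24 assembly factors 2 were higher and 13 lower (8.33% and 54.2%), with a median of -0.38. DDX28, an RNA helicase of large subunit assembly, had a mean of 1.24 CPM at 4 h and 11.5 CPM at 0 h (-3.22 ± 0.25, adjusted p = 4.82e-07). RNMTL1, a methyltransferase of the large ribosomal RNA, fell by 1.23 ± 0.12 and NOA1, a GTPase, by 0.89 ± 0.13.

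Of 14 translation factors 3 were higher and 2 lower (21.4% and 14.3%), against 23.3% and 24.6% of all genes. The elongation factor TUFM rose by 0.36 ± 0.06 (adjusted p = 0.000299; -0.01 with scaling to cytosolic ribosomal protein mRNAs), and the release factor relative C12orf65 fell by 1.61 ± 0.21 (adjusted p = 4.3e-05). TACO1, a translational activator of the cytochrome oxidase subunit COX1, fell by 0.53 ± 0.12 (adjusted p = 0.00236). Of 15 genes of mitochondrial transcription and RNA maturation 3 were higher and 4 lower (20% and 26.7%), near the shares of all genes. MTERF1 changed by -2.69 ± 0.14, the tRNA processing factor TRMT10C by -1.85 ± 0.12 and the poly(A) polymerase MTPAP by -1.03 ± 0.09. Of 9 regulators of mitochondrial biogenesis 1 was higher and 5 lower (11.1% and 55.6%), with a median of -0.69. Among them MYC fell by 4.33 ± 0.22, PPRC1 by 1.62 ± 0.12 and the transcription factor NRF1 by 1.18 ± 0.13. Of 77 cytosolic ribosomal protein genes 74 were higher and 1 lower with a median of 0.37, and of 37 complex I subunits 31 were higher and 1 lower with a median of 0.36. Those 2 medians were 0.22 and 0.21 with library totals, where that of the mitochondrial ribosomal proteins was -0.08. No difference between lists was tested.

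**Figure D5:**
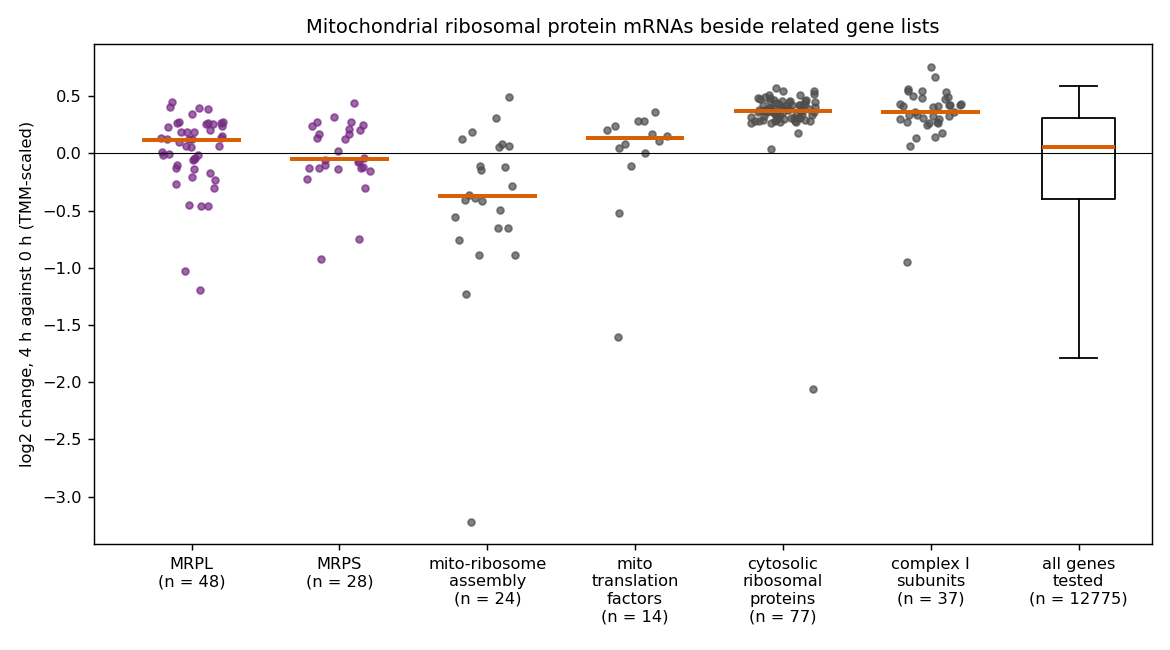
Log2 change at 4 h against 0 h of single genes (points) in the MRPL and MRPS genes and 4 related lists, with orange lines for medians, and a box for all 12775 genes tested (quartiles, whiskers at the 5th and 95th percentiles). The mitochondrial ribosomal proteins spread around 0 with medians of 0.11 and -0.05, the assembly factors have a median of -0.38, and the cytosolic ribosomal proteins and complex I subunits lie at 0.37 and 0.36.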

How the data were processed

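Raw read counts per gene symbol in 12 libraries were deposited by the authors. Per the labels' protocols, RNA came from a Nucleospin extraction, and TruSeq stranded chemistry served for the mRNA libraries. FastQC, STAR and the build hg19 are named, per the submitters' processing notes. The counting program, the annotation and the strand setting are not given in the sources used here, so reads of pseudogenes and overlapping genes may have been shared: 34 members have 75 pseudogenes named for them in GENCODE v29, of which 2 were rows of the table. No spike-in was used in scaling.

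The analysis used edgeR 4.0.16 under R 4.3.3: filterByExpr on the 4 time groups, TMM, and the quasi-likelihood test over all 12 libraries. A standard error is the size of the log2 change over the root of its F value. Comparisons were 1, 2 and 4 h against 0 h, 4 h against 2 h, and a slope per hour. DESeq2 1.42.0 and other scalings, filters and sample sets were alternatives. The script was tested on simulated data. The chi-square of counts per degree of freedom was 4.13 to 15.2 between replicates, so each library was 1 replicate. It was 4.13 to 4.87 between replicates 1 and 2 of a time, and 8.68 to 15.2 in pairs with replicate 3. The labels call the replicates biological and say no more of their source, so p-values measure the spread between these samples.

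Same-numbered replicates deviated together from the time means, with correlations of 0.263 to 0.649 over 18 pairs. Over 36 pairs of different number they were -0.501 to 0.160. The numbers therefore pair the samples, but the main fit did not use this pairing. With the replicate block 30 members were higher and 15 lower at 4 h, against 16 and 9 in the main fit. Values with the block are given for only some of the genes whose call changed.

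The members, the gene lists and the tests were chosen with earlier results of these data known. Named genes were, per subunit, the 4 lowest and 4 highest changes at 4 h with a mean of at least 5 CPM, those called at 1 and 2 h, the most and least abundant, MRPS18A, MRPS18B, MRPS18C, MRPS30 and MRPS36, and 3 genes per related list. The other members named, and those at 4 h against 2 h, were chosen after their values were seen. Sequences are from GENCODE v29 and from RefSeq promoters (GRCh38.p14), and were matched by symbol.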

Additional observations from a re-analysis of the deposited data

How the results depend on the processing

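Every member change named above for 4 h against 2 h or 0 h that was called lower kept its direction under every scaling, filter and tool run. For the scalings this could not have come out otherwise, since each one other than TMM moved the median of all genes down in both comparisons. With library totals the members called higher and lower numbered 2 and 25 at 4 h, 2 and 15 between 2 and 4 h and 2 and 25 for the slope, with 0 higher at 2 h. The shares of all genes higher and lower were 10.5% and 31.0%, 4.84% and 19.0%, and 10.6% and 31.9%, with 1.12% higher at 2 h. Scaling to cytosolic ribosomal protein mRNAs gave 0 higher at each of 1, 2 and 4 h, between 2 and 4 h and for the slope, where 0.125% to 1.2% of all genes were higher, and 6, 42, 34 and 43 lower at 2 h, at 4 h, between them and for the slope, against 17.1%, 45.8%, 30.5% and 47.9% of all genes. RLE gave 6 higher and 9 lower between 2 and 4 h (8.63% and 15.2% of all genes). At 4 h the median of all genes moved by -0.15 with library totals and by -0.02 with RLE. With scaling to cytosolic ribosomal protein mRNAs it moved by -0.37 at 4 h, but by 0.0048 at 1 h, where the higher member was also lost. Without a filter 0 were higher and 1 lower at 2 h (1.38% and 7.36% of all genes), and 6 higher between 2 and 4 h (5.63%). With only the libraries of both times the higher numbered 0 at 1 h, 0 at 2 h, 10 at 4 h and 6 between 2 and 4 h (0.04%, 1.73%, 19.6% and 9.17% of all genes), and 1 was lower at 2 h (10.9%). DESeq2 gave 0 higher and 1 lower at 2 h (3.73% and 11.3% of all genes) and 5 higher between 2 and 4 h (8.54%). The replicate block, in which the numbers pair the samples, gave 1 lower at 1 h, 7 and 6 at 2 h, 30 and 15 at 4 h and 17 and 12 between 2 and 4 h, beside 6.28%, 15.9% and 19.5%, 34.8% and 30.8%, and 22.1% and 22.3% of all genes. The cause of these differences was not tested for the scalings, the filter, the sample sets, DESeq2 or the block.

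The median change at 4 h was -0.085 over all members, -0.036 over the large and -0.20 over the small subunit with library totals, and -0.31, -0.26 and -0.42 with scaling to cytosolic ribosomal protein mRNAs. With members under other symbols added the small subunit median was -0.0070. The large minus small difference of 0.16 was 0.13 by place in the ribosome and 0.12 with other symbols added.

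Leaving out 1 library, or all of 1 replicate number, gave these ranges. Higher members numbered 0 at 1 h, 0 to 2 at 2 h, 2 to 13 at 4 h, 0 to 7 between 2 and 4 h and 8 to 18 for the slope. Shares over all genes were 0% to 0.194%, 0.0858% to 2.68%, 11.2% to 22.7%, 1.57% to 8.41% and 16% to 24.9%, in that order. Lower members numbered 0 to 2 at 2 h, 7 to 10 at 4 h, 2 to 7 between 2 and 4 h and 6 to 10 for the slope. For these the shares over all genes were 4.89% to 12.6%, 17.8% to 26%, 6.19% to 14.2% and 20.2% to 26.5%. The medians ran over 0.013 to 0.085 for all members, 0.037 to 0.13 for the large subunit and -0.066 to 0.0035 for the small subunit, and their difference over 0.083 to 0.17.

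Scaling to cytosolic ribosomal protein mRNAs turned the change at 4 h to -0.19 for MRPL48, -0.31 for MRPL3 (adjusted p = 0.00441, edgeR), -0.10 for each of MRPS15, MRPS14, MRPL12 and MRPL41, -0.059 for MRPS33, -0.028 for MRPL13, -0.25 for MRPS28, -0.20 for each of MRPS6 and MRPS11, -0.16 for MRPS36, -0.019 for DAP3, -0.012 for AURKAIP1, -0.014 for TUFM and -0.082 for GADD45GIP1. Library totals turned MRPL3 to -0.085 and MRPS28 to -0.022, and leaving out 4 h replicate 2 turned them to -0.016 and -0.014. Over the fits that left out libraries MRPS28 ran from -0.028 (without replicate 2) to 0.33 (without replicate 1). Its 65 to 118 counts per library, under those of every other member on average, limit its precision. Intervals from counts would cover counting error only.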
